A study of Brassica rapa with 23 samples.

Results

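Leaf discs treated with chitin for 180 min were compared with leaf discs kept in water for 180 min, using 3 chitin and 6 water libraries of the 23 RNA-seq libraries in the series. The groups were taken from the sample labels. Genes with at least 1 FPKM (fragments per kilobase of transcript, scaled to the library total) in at least 3 of these 9 libraries were tested, which left 23276 of the 41020 genes in each table. All plants were wild type Brassica rapa ssp. pekinensis (Chinese cabbage) cultivar Norang, grown on soil for 17 days with 10 h of light per day, and the first true leaf was used. The tested discs received chitin, the polymer of fungal cell walls, at 100 μg per ml, and the control discs received water alone. The other libraries came from discs treated with chitin for 30 min (3 libraries), with flg22, a peptide of bacterial flagellin, at 100 nM for 30 or 180 min (3 libraries each), and with water for 30 min (5 libraries). They are used here where the 180 min chitin response is set against its state at 30 min or against flg22. Each replicate pooled leaf discs, in which fewer cells of a type and less RNA per cell cannot be told apart.

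Plants detect chitin fragments at the cell surface through receptors that carry lysin motifs (LysM). In Arabidopsis, LYK5 binds chitin and acts together with the receptor kinase CERK1, and LYM2 is a LysM protein without a kinase domain that also binds chitin. Their activation starts pattern-triggered immunity, in which ion fluxes, reactive oxygen and kinase cascades are followed by a large change in transcription, with defense metabolites such as the glucosinolates of the Brassicaceae among the later outputs.

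The gene tables identify genes by a Bra number and a position on the B. rapa chromosome v1.5 build, and the reference table used here gave a symbol for 1 of them, SWEET9 (Bra000116), a sugar transporter listed at 0 in every library. All other gene names are those given by the study, and the leaf label was not checked against marker genes. For several genes below, a qPCR primer pair of the study is the sequence that ties the identifier to a transcript. The primers are shown 5′ to 3′ for some of the genes named below, and none of the bases is marked out.
Endochitinase Bra000310 forward: gcgttctttgctcacgtcac
Endochitinase Bra000310 reverse: gttccaggagagctggatcg
S-adenosylmethionine synthase 3 Bra017219 forward: actcaccgggaggaagatca
S-adenosylmethionine synthase 3 Bra017219 reverse: acgacacctggacaatgcag
UGT74B1 Bra024634 forward: ccagaagggtttgtggaagc
UGT74B1 Bra024634 reverse: cggaactcccaaactcaacc
BraNHL10 Bra017272 forward: ttcaacgccggagagttacg
BraNHL10 Bra017272 reverse: tccccaagcttaaacctaaccc
Bra010367 forward: atggtaatcgtggcgttgtt
Bra010367 reverse: ccaaacgctgaaaccaaaa
Bra031321 forward: tccccgagctacgtaagaga
Bra031321 reverse: tagctttggtctgcgtgttg
Bra009738 forward: tctacgcaagccaatgtcag
Bra009738 reverse: ctagggttcatgccaccaat

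The libraries were of similar depth, with 4.24 to 5.27 aligned gigabases in chitin and 4.09 to 4.92 in water, and 30.5% to 33.2% of the genes were listed at 0 in each. On log2(FPKM + 1), the libraries correlated at 0.964 to 0.984 within chitin, at 0.942 to 0.985 within water and at 0.769 to 0.925 between a chitin and a water library. The first principal component held 73.5% of the variance and separated the chitin from the water libraries. The second, with 11% of the variance, set water replicates 2-s15 and 3-s23 apart from the other water libraries (s is the sample number in the label, which tells water libraries of 1 replicate number apart). Their scores were -33.7 and -44.1, on the same side as chitin replicates 2 (-15.8) and 3 (-24), while chitin replicate 1 (13.9) lay on the side of the other 4 water libraries (19.5 to 35.5). Results that depend on these libraries are given with and without them.

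Chitin changed the level of 23.5% of the tested genes at 180 min, and more genes fell than rose as the values were deposited. With limma and a Benjamini-Hochberg adjusted p under 0.05 together with a change of at least 2-fold on the log2(FPKM + 1) scale, 2193 genes were higher (9.42% of those tested) and 3288 were lower (14.1%). Without water replicates 2-s15 and 3-s23 these counts were 1903 and 3129. The median change of all tested genes was -0.12 on the log2 scale. After the libraries were scaled to a common median ratio it was -0.01, and 2563 genes were higher and 2734 lower, so that the higher genes made up 48.4% of the calls, and 40.01% as deposited. Of the 5481 calls as deposited, 4927 were made in the same direction after scaling, and the calls at 180 min of the genes named below did not change.

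On the log2(FPKM + 1) scale, rises were larger than falls. The median log2 fold change was 1.59 among the raised genes and -1.4 among the lowered ones. A change of at least 2 on the log2 scale was seen for 664 raised genes (30.3%) and 530 lowered genes (16.1%), and one of at least 4 for 48 raised and 12 lowered genes. All 3 chitin libraries lay above all 6 water libraries for 2050 of the raised genes (93.5%), and all 3 lay below them for 3121 of the lowered genes (94.9%). Among all tested genes, called or not, 20.4% were separated upward and 29.5% downward in this way. The scale compresses changes of genes near 1 FPKM, which is visible as the narrow left end of the plot of change against level. It also shrinks falls that end at low levels, and the lowered genes had a median of 4.33 FPKM in chitin. With a pseudocount of 0.1, 2501 genes were higher and 4515 lower. Whether rises were larger than falls with another pseudocount or after scaling was not tested.

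**Figure D1:**
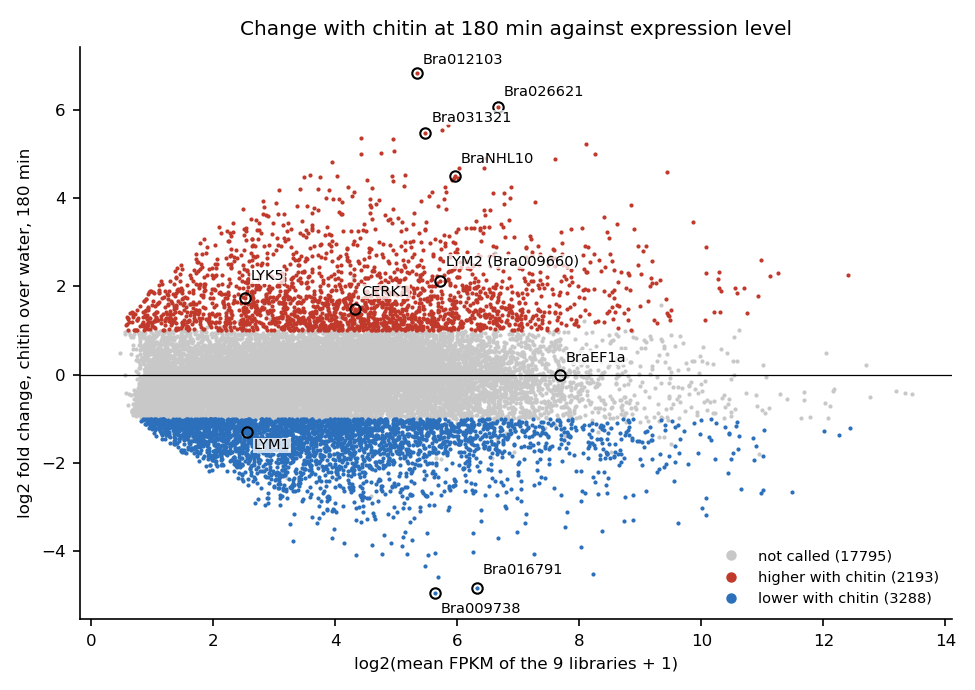
Log2 fold change of chitin over water at 180 min (vertical axis) against the log2 of the mean FPKM of the 9 libraries plus 1 (horizontal axis), 1 point per tested gene. Red points are the 2193 genes called higher, blue points the 3288 called lower and grey points the rest, and circles mark genes named in the text, from Bra012103 at 6.84 to Bra009738 at -4.96.

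The raised genes had higher levels in chitin than the lowered genes, as their selection implies. Their median level was 34.7 FPKM in chitin and 9.65 FPKM in water, whereas the lowered genes had medians of 4.33 FPKM in chitin and 15.4 FPKM in water. Of the 100 most abundant genes in chitin libraries, 43 were raised and 4 lowered, and of the 100 most abundant in water libraries 5 were raised and 36 lowered, beside 9.42% raised and 14.1% lowered over all tested genes. These lists were drawn from the libraries that made the calls, which tilts each split toward its own group, so the counts are a description only. The share of genes raised grew with the mean level over the 9 libraries, from 5.25% of genes at 1 to 3 FPKM to 22.0% of genes over 100 FPKM, a mean that the rise itself lifts. The share lowered varied less over the same classes, between 12.5% and 17.3%.

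The same shift was read as a share of transcripts, on the TPM values (transcript abundances scaled to a common total per library). The raised genes held 32.0%, 29.4% and 23.4% of the TPM in chitin replicates 1 to 3, against 5.02% to 9.93% in the 6 water libraries. The lowered genes held 6.13%, 8.33% and 11.1% in chitin replicates 1 to 3, against 21.4% to 27.9% in water. Both genes and shares come from the same libraries, so these values describe the size of the change and are no test of it. Chitin replicate 3 lay nearest to water in both. Relative to the water mean, its median difference was 1.42 over the raised genes and -1.09 over the lowered ones on the log2 scale, against 1.69 and -1.74 in replicate 1 and 1.68 and -1.42 in replicate 2. Leaving it out gave 2309 raised and 3912 lowered genes.

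**Figure D2:**
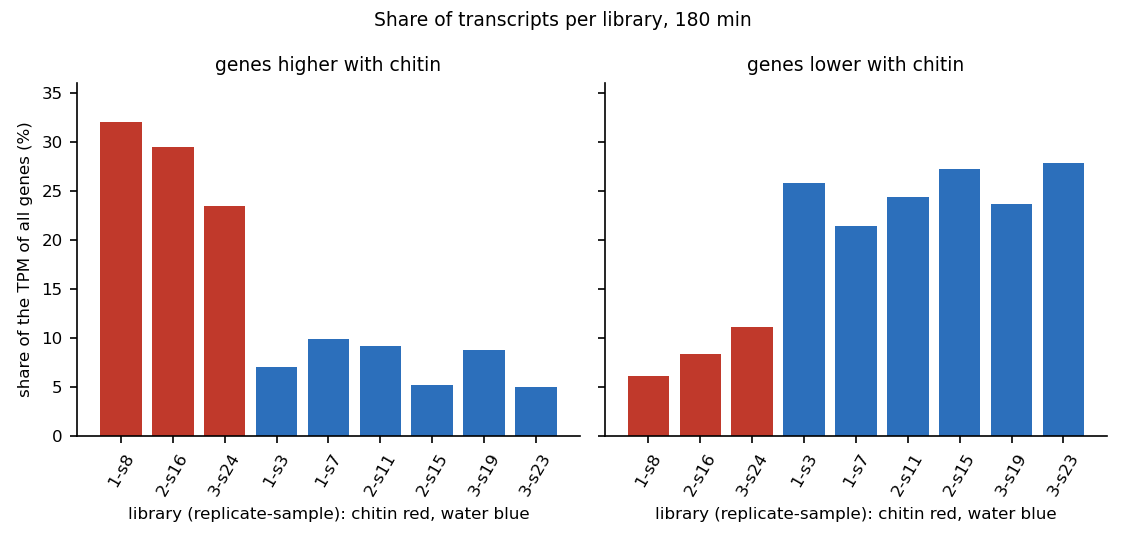
Share of the TPM of all genes (vertical axis, %) held by the genes called higher (left) and lower (right) with chitin, 1 bar per library, with the 3 chitin libraries in red and the 6 water libraries in blue. The raised genes held 23.4% to 32.0% in chitin and 5.02% to 9.93% in water, and the genes were chosen on these same libraries.

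On the deposited values, fewer genes reached 1 FPKM after chitin, a count that was not repeated after median-ratio scaling. On average 21365 ± 397 genes reached 1 FPKM in chitin libraries (SD, n = 3) and 22433 ± 222 in water libraries (SD, n = 6). The groups did not overlap (exact permutation test, two-sided p = 0.0238, the smallest possible for 3 against 6 libraries without pairing). The 100 most abundant genes of each library held 23.6% ± 0.73 of the TPM in chitin (n = 3) and 26.0% ± 2.3 in water (n = 6), a difference within the spread (exact permutation test, p = 0.0952).

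All 4 homologs of the chitin receptors were raised, beside 9.42% of all tested genes. The median log2 fold change of the 4 homologs was 1.62, beside -0.12 over all tested genes. The study had picked them by sequence and synteny. CERK1 (Bra031293, A05:16977701-16980704), the co-receptor kinase, had 36.4, 36.3 and 28.3 FPKM in chitin replicates 1 to 3, against 6.51 to 15.4 FPKM (median 13.0) in the water libraries. Every chitin value was above every water value, and the log2 fold change was 1.49 ± 0.25 (SE, limma adjusted p = 0.000669).

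LYK5 (Bra021861, A04:15018935-15023059), the chitin-binding receptor kinase, was the least abundant of the 4 in water. It had 9.95, 8.24 and 10.8 FPKM in chitin and 1.15 to 3.75 FPKM (median 2.06) in water, a log2 fold change of 1.74 ± 0.25 (SE, limma adjusted p = 0.000283). Of the 2 homologs of LYM2, Bra009660 (A06:17045973-17047648) was both more abundant and more strongly raised. It had 114, 107 and 97.2 FPKM in chitin and 17.9 to 34.99 FPKM (median 21.4) in water, and its log2 fold change of 2.12 ± 0.22 was the largest of the receptors (limma adjusted p = 5.83e-05).

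Bra002021 (A07:2492928-2494398), the other LYM2 homolog, had 12.6, 13.2 and 16.5 FPKM in chitin and 2.48 to 10.4 FPKM (median 4.9) in water. The groups did not overlap, but the gap to the highest water library, 2-s11, was small. Its log2 fold change was 1.26 ± 0.31 (limma adjusted p = 0.0061). With 1 water library per replicate number, the least favourable of the 8 choices gave 0.92, under the 2-fold threshold.

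Of the 8 homologs of receptors for bacterial patterns listed by the study, 5 passed the filter, of which 1 rose, 1 fell and 3 were not called, with a median of -0.23. With 9.42% of all tested genes raised and 14.1% lowered, these counts are read as no result about the receptors as a group. The homolog of LORE (Bra031434, A01:17330202-17333139), which in Arabidopsis perceives bacterial lipid molecules, rose. It had 57.7, 44.1 and 52.1 FPKM in chitin and 9.65 to 28.4 FPKM (median 15.4) in water, a log2 fold change of 1.66 ± 0.29 (limma adjusted p = 0.00101). The LYM1 homolog Bra016402 (A08:17512432-17514340), a LysM protein of peptidoglycan perception, fell to 1.58, 1.67 and 2.77 FPKM in chitin, against 4.26 to 8.23 FPKM (median 6.26) in water, with a log2 fold change of -1.29 ± 0.2 (limma adjusted p = 0.000443).

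BraFLS2 (Bra017563, A09:12614687-12620601), the flagellin receptor, had 9.03 to 12.4 FPKM in chitin and 8.52 to 16.1 FPKM (median 12.7) in water. The groups overlapped, and the log2 fold change was -0.23 ± 0.18 (limma adjusted p = 0.319). Without water replicates 2-s15 and 3-s23 it was -0.39 (limma adjusted p = 0.0471), still under 2-fold. BraEFR2 (Bra002305), the receptor of bacterial elongation factor Tu, had 1.46 to 2.75 FPKM in chitin and 0.451 to 1.25 FPKM (median 0.687) in water. Its groups did not overlap, and its log2 fold change of 0.78 ± 0.18 passed the adjusted p (limma adjusted p = 0.0045) but not the 2-fold threshold, which it did pass with a pseudocount of 0.1, at 1.33. LYM3 (Bra008320) was near the filter, with 0.113 to 0.457 FPKM in chitin and 0.359 to 1.21 FPKM in water, and its log2 difference of -0.61 ± 0.17 was under 2-fold. It too passed with a pseudocount of 0.1, at -1.58. Of the 3 homologs that were not tested, Bra006560 (BraEFR1) and Bra022032 (the other FLS2 homolog) were listed at 0 in all 23 libraries, and Bra017956 (the other LYM1 homolog) stayed under 1 FPKM in all of them.

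**Figure D3:**
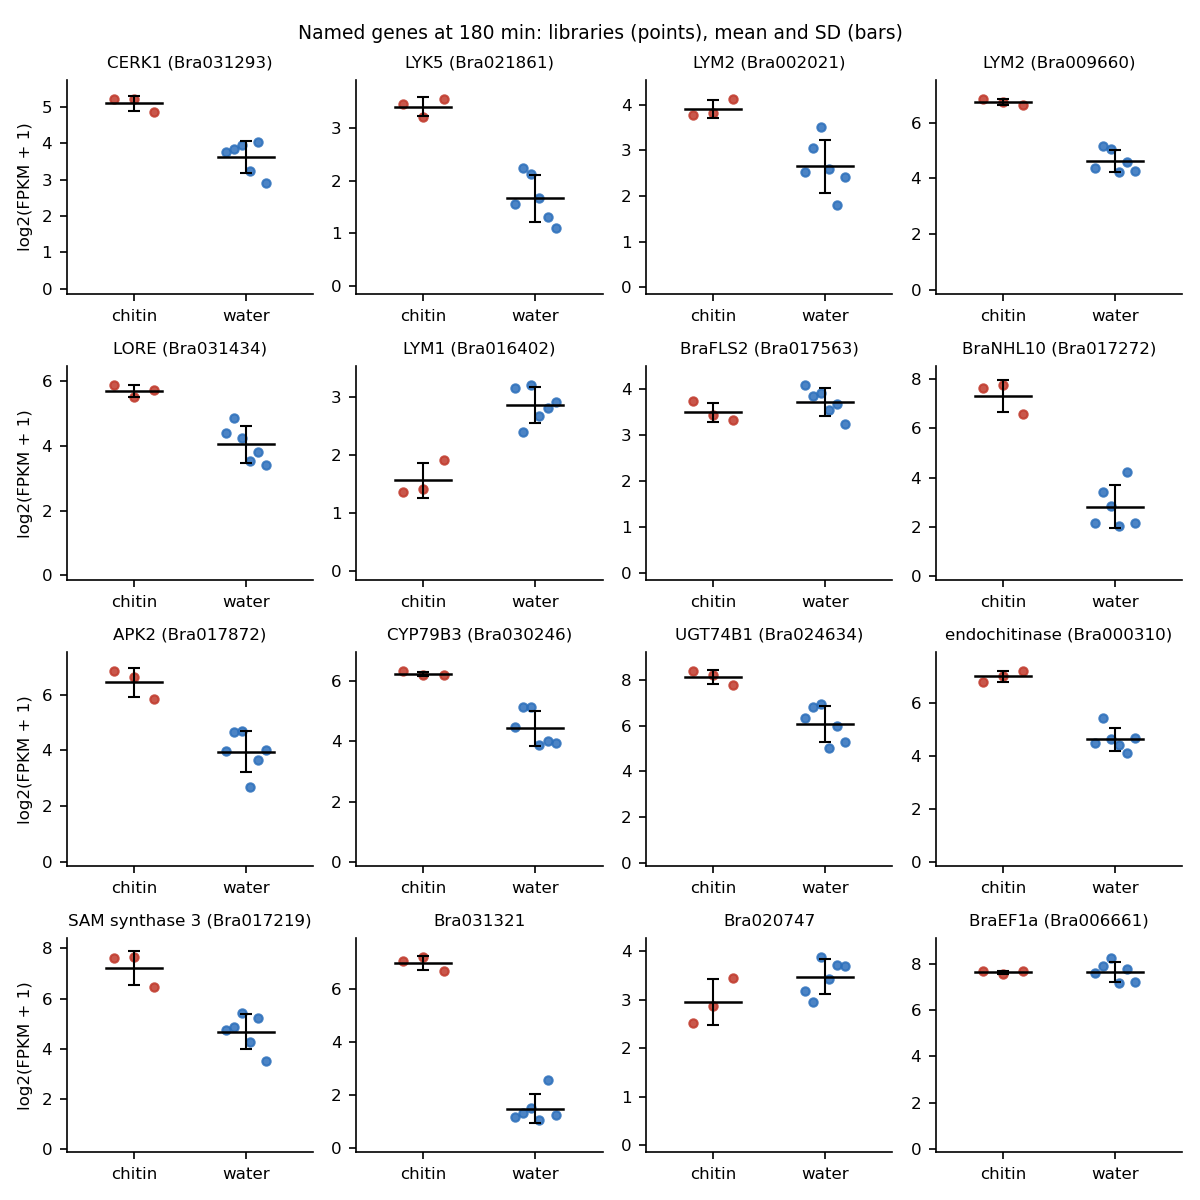
Log2(FPKM + 1) of 16 named genes in the 3 chitin (red, left) and 6 water (blue, right) libraries at 180 min, 1 panel per gene with its own axis. Points are libraries, and bars give the mean and SD of the group. The groups overlap in the panels of BraFLS2, Bra020747 and BraEF1a.

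BraNHL10 (Bra017272, A04:15740520-15741203), whose Arabidopsis counterpart is a widely used immune marker transcript, was strongly raised. It had 199.97, 213 and 93.9 FPKM in chitin and 3.12 to 17.5 FPKM (median 4.93) in water. The highest water library, 3-s19, was well under the lowest chitin library, and the log2 fold change was 4.5 ± 0.49 (limma adjusted p = 7.07e-05). BraEF1a (Bra006661), an elongation factor that served the study as qPCR reference, had 189 to 204 FPKM in chitin and 141 to 309 FPKM (median 207) in water, a log2 fold change of -0.01 ± 0.24 (limma adjusted p = 0.978). The chitin values lay inside the range of the water values.

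APK2, CYP79B3 and UGT74B1 are the glucosinolate genes for which an identifier was given, and all 3 were raised. Of all tested genes, 9.42% were raised. These 3 had been picked on these libraries, so their common direction is no independent evidence. Other glucosinolate genes were not analysed here. CYP79B3 (Bra030246, A04:10022729-10024935), which converts tryptophan to the precursor of indolic glucosinolates, had 79.6, 73.0 and 73.5 FPKM in chitin and 13.7 to 34.6 FPKM (median 18.3) in water. The chitin libraries were within a narrow band above all water libraries, with a log2 fold change of 1.81 ± 0.31 (limma adjusted p = 0.00073). UGT74B1 (Bra024634, A09:25123658-25125223), the glucosyltransferase of the core pathway, had 329, 294 and 220 FPKM in chitin and 31.7 to 122 FPKM (median 70.1) in water, and rose by 2.07 ± 0.41 (limma adjusted p = 0.00191).

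APK2 (Bra017872, A03:31218969-31220359), a kinase that makes the sulfate donor used in the last step of the core pathway, had 113, 97.5 and 57.1 FPKM in chitin and 5.53 to 25.03 FPKM (median 14.99) in water. Its lowest chitin library, replicate 3, was still above the highest water library, and the log2 fold change was 2.48 ± 0.41 (limma adjusted p = 0.000637). In water, UGT74B1 and CYP79B3 were lowest in replicates 2-s15, 3-s19 and 3-s23, and without 2-s15 and 3-s23 their log2 fold changes were 1.62 and 1.56.

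The endochitinase and S-adenosylmethionine synthase 3, which the study selected from these libraries together with UGT74B1 as late responders to chitin, were both raised. The endochitinase Bra000310 (A03:10496406-10497525), an enzyme that cleaves chitin, had 108, 129.9 and 145 FPKM in chitin and 16.4 to 41.6 FPKM (median 22.9) in water, with a log2 fold change of 2.36 ± 0.24 (limma adjusted p = 5.34e-05). S-adenosylmethionine synthase 3 (Bra017219, A04:16058827-16059999), which makes a methyl donor that is also the precursor of ethylene, had 193, 198 and 86.5 FPKM in chitin and 10.4 to 41.7 FPKM (median 26.9) in water. Chitin replicate 3 was the lowest of its group, and the log2 fold change was 2.56 ± 0.42 (limma adjusted p = 0.000605).

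Among the 4 further genes the study tested by qPCR, for which no function is given, 2 rose, 1 fell and 1 was not called. Over all tested genes, 9.42% rose and 14.1% fell. The study drew these 4 at random from genes it had called on these libraries, so their changes are no independent evidence. Bra031321 (A05:16724079-16725332) had 133, 145 and 103 FPKM in chitin and 1.12 to 4.98 FPKM (median 1.46) in water, and Bra010367 (A08:13373824-13374042) had 68.7, 98.9 and 57.2 FPKM in chitin and 0.666 to 2.35 FPKM (median 1.02) in water. Their log2 fold changes were 5.49 ± 0.3 and 5.03 ± 0.27 (limma adjusted p = 4.08e-06 and 3.95e-06). Bra020747 had 4.79 to 10.0 FPKM in chitin and 6.78 to 13.7 FPKM in water, which overlapped, with a log2 fold change of -0.52 ± 0.25 (limma adjusted p = 0.0943).

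Bra009738 (A06:17546779-17549963) showed the largest fall of all genes with separated groups. It had 0.607, 1.13 and 2.22 FPKM in chitin and 45.3 to 124 FPKM (median 63.1) in water, a log2 fold change of -4.96 ± 0.31 (limma adjusted p = 7.96e-06). Bra016791 (A08:19238354-19238767) was next, with 1.16, 0.735 and 1.91 FPKM in chitin. Its water values were split, at 8.66 and 13.1 FPKM in replicates 2-s15 and 3-s23 and 87.3 to 355 FPKM in the other 4. Its log2 fold change was -4.83 ± 1.01 (limma adjusted p = 0.00257), and it was -6.05 without those libraries.

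The largest rises were those of Bra012103 (A07:12233982-12234401) and Bra026621 (A02:19936666-19939088). Bra012103 had 122, 143 and 90.6 FPKM in chitin and was listed at 0 in 5 of the 6 water libraries, with 0.166 FPKM in replicate 1-s7. Its log2 fold change on the log2(FPKM + 1) scale was 6.84 ± 0.14 (limma adjusted p = 7.49e-09), a value set in part by the pseudocount. Bra026621 had 335, 330.3 and 216 FPKM in chitin and 1.78 to 10.2 FPKM (median 2.63) in water, a log2 fold change of 6.08 ± 0.39. Like those of every other gene given above as called, the direction and call of these genes held when each of the 9 libraries was left out in turn.

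About as many late-raised genes had already been raised at 30 min as had not, whereas most late-lowered genes were not yet called then. At 30 min, 1814 of the tested genes were higher with chitin (7.79%) and 2404 were lower (10.3%). Of the 2193 genes raised at 180 min, 1054 (48.1%) were also raised at 30 min, which is 58.1% of the genes raised at 30 min, and 40 were lowered at 30 min. Of the 3288 genes lowered at 180 min, 787 (23.9%) were also lowered at 30 min, which is 32.7% of the genes lowered then, and 23 were raised. These comparisons share no library. The median change at 30 min was 0.94 for the late-raised genes and -0.6 for the late-lowered ones, beside -0.47 for all tested genes, so the overlap of falls depended on scaling. With libraries scaled to a common median ratio, 2525 genes were higher and 837 lower at 30 min, 1384 genes were raised and 357 were lowered at both times, and the lowered ones made up 13.1% of those lowered at 180 min.

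**Figure D4:**
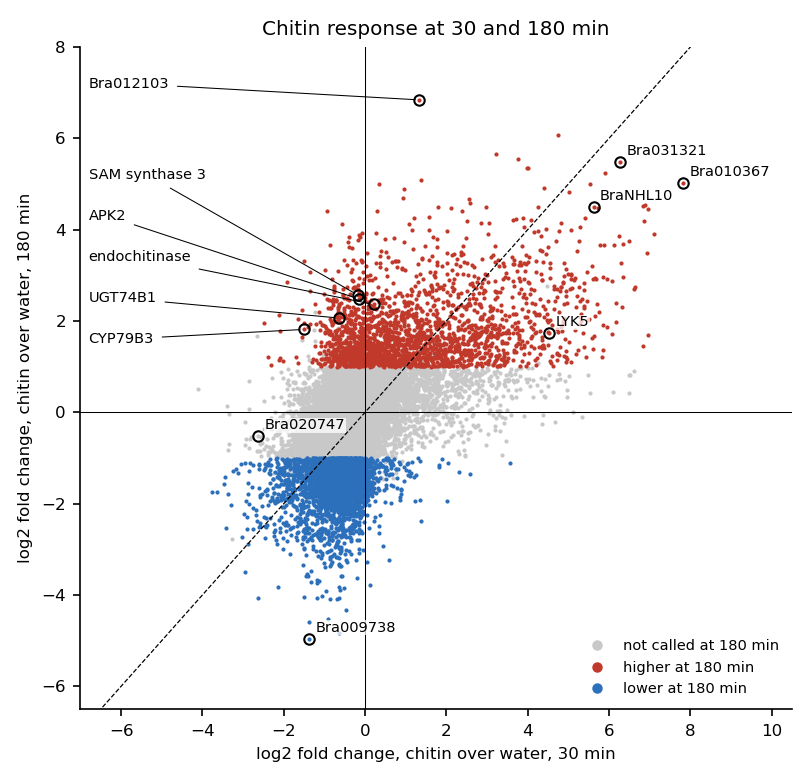
Log2 fold change of chitin over water at 180 min (vertical axis) against that at 30 min (horizontal axis), 1 point per tested gene. Red and blue points are genes called higher and lower at 180 min, the dashed line marks equal change, and circles mark named genes. Bra010367 and LYK5 lie right of the line and Bra012103 and the glucosinolate genes lie left of it.

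The difference between the late and the early response was tested directly as the response at 180 min minus that at 30 min. It was positive for 3090 genes (13.3%) and negative for 2155 (9.26%), with 2-fold and an adjusted p under 0.05, and these counts were 1386 and 3422 after median-ratio scaling, so the share of positive calls was 58.9% as deposited and 28.8% after scaling. Among the receptors, LYK5 differed most between the times. Its rise was far larger early on, with 61.1, 77.1 and 106 FPKM in chitin at 30 min and 1.56 to 3.80 FPKM in water at 30 min. Its log2 response was 1.74 at 180 min and 4.53 at 30 min, and the difference was -2.8 ± 0.37 (limma adjusted p = 1.23e-05). CERK1 had a response of 1.83 at 30 min, and the difference of -0.34 ± 0.36 was within error (limma adjusted p = 0.446). The stronger late response of LYM2 Bra009660 (difference 1.2 ± 0.3) and of LORE (1.16 ± 0.38) fell under 2-fold after scaling, to 0.82 and 0.80. Without water replicate 3-s17 of 30 min, that of LORE was 0.98.

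The glucosinolate and late genes showed the opposite order. The study had picked them on these libraries, as changed or raised only with chitin at 180 min. Their late minus early differences are therefore no independent evidence. CYP79B3 was lowered at 30 min, with 4.02, 9.53 and 7.81 FPKM in chitin and 16.0 to 25.5 FPKM in water (log2 fold change -1.5, limma adjusted p = 0.000768), before it was raised at 180 min, and the difference of the responses was 3.32 ± 0.47 (limma adjusted p = 2.59e-05). APK2, UGT74B1, the endochitinase and S-adenosylmethionine synthase 3 were not called at 30 min, with log2 fold changes between -0.65 and 0.21, and their responses differed between the times by 2.64, 2.71, 2.15 and 2.73. Bra012103 had the largest such difference among the named genes, with 1.12 to 2.58 FPKM in chitin at 30 min and a difference between the responses of 5.51 ± 0.25. Bra010367 went the other way, with 523, 399 and 222 FPKM in chitin at 30 min and at most 1.59 FPKM in water, and the difference of the responses was -2.79 ± 0.48. Bra020747 was lowered at 30 min (log2 fold change -2.62) and was not called at 180 min.

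Bra009738 was already called lower with chitin at 30 min (log2 fold change -1.37 ± 0.47, limma adjusted p = 0.0146), where the groups overlapped. Its larger fall at 180 min coincided with a higher level in water at that time. It had 0.569 to 4.02 FPKM in chitin at 30 min, close to the late chitin values, but 1.71 to 17.1 FPKM in water at 30 min against 45.3 to 124 FPKM in water at 180 min. Bra016791 was also higher in water at 180 min, at 0.742 to 7.17 FPKM in water at 30 min and 8.66 to 355 FPKM at 180 min. It had 0.715 to 2.92 FPKM in chitin at 30 min and was not called then (log2 fold change -0.64). The differences of the responses were -3.58 ± 0.65 and -4.2 ± 1.13 (limma adjusted p = 0.000256 and 0.00527).

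**Figure D5:**
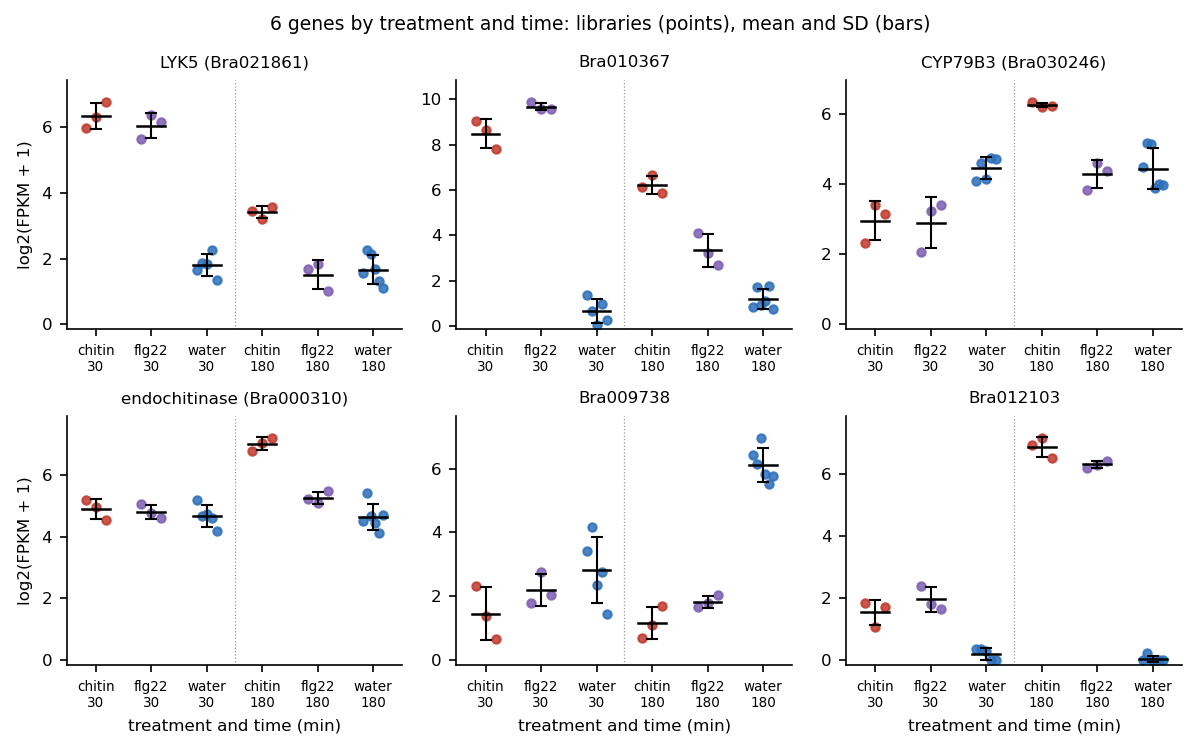
Log2(FPKM + 1) of 6 genes by treatment, at 30 min (left of the dotted line) and 180 min (right of it), with chitin in red, flg22 in purple and water in blue. Points are libraries (3 for each elicitor and time, 5 water libraries at 30 min and 6 at 180 min), and bars give the mean and SD. LYK5 remained above water at 180 min with chitin, at 8.24 to 10.8 FPKM, and was within the water range with flg22 in 2 of 3 libraries.

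Set directly against flg22 at the same time, chitin gave higher levels of 533 genes (2.29%) and lower levels of 547 (2.35%). These counts rest on 3 libraries per group. Without chitin replicate 2 they were 318 and 333, without flg22 replicate 3 they were 319 and 335, and with median-ratio scaling 687 and 362 (65.5% higher, against 49.4% as deposited). LYK5 had 8.24 to 10.8 FPKM with chitin and 1.00 to 2.54 FPKM with flg22, a log2 difference of 1.9 ± 0.3 (limma adjusted p = 0.000544). The other chitin receptor homologs were 0.52 to 0.75 higher with chitin than with flg22 on the log2 scale, differences that missed the threshold (limma adjusted p = 0.0762 to 0.247). Against water at 180 min, flg22 raised LYM2 Bra009660 by 1.45 ± 0.21 (limma adjusted p = 2.1e-05). CERK1 (0.96) and LYM2 Bra002021 (0.51) stayed under 2-fold with flg22. Among the homologs of receptors for bacterial patterns, flg22 raised LORE (1.04 ± 0.27, limma adjusted p = 0.00365) and BraEFR2 (1.23 ± 0.16, limma adjusted p = 5.46e-06). Neither was called between chitin and flg22 (log2 differences 0.62 and -0.45). LYM1 Bra016402, LYM3 and BraFLS2 were not called with flg22 against water (-0.72, -0.57 and 0.02).

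CYP79B3 had 73.0 to 79.6 FPKM with chitin and 13.3 to 23.4 FPKM with flg22, a log2 difference of 1.98 ± 0.38 (limma adjusted p = 0.00227). APK2 differed by 1.94 ± 0.4 (limma adjusted p = 0.0043), with 57.1 to 113 FPKM with chitin and 17.6 to 28.6 FPKM with flg22. The endochitinase differed by 1.75 ± 0.26 (limma adjusted p = 0.000426), with 108 to 145 FPKM with chitin and 32.7 to 43.1 FPKM with flg22. UGT74B1 and S-adenosylmethionine synthase 3 differed by 0.87 ± 0.39 and 1.18 ± 0.47, which missed the threshold (limma adjusted p = 0.149 and 0.104). S-adenosylmethionine synthase 3 passed when the 6 libraries compared were fitted alone (limma adjusted p = 0.0416). Against water at 180 min, flg22 also raised UGT74B1 (1.2 ± 0.34) and S-adenosylmethionine synthase 3 (1.39 ± 0.41, limma adjusted p = 0.00762 and 0.00938). The study, with DESeq2 and its own water controls, reported both as raised only by chitin. It reported the same for both genes and the endochitinase by qPCR on other sets of biological samples. CYP79B3, APK2 and the endochitinase were not called with flg22 against water (log2 fold changes -0.17, 0.54 and 0.61). Bra016791 had 0.735 to 1.91 FPKM with chitin and 8.10 to 22.5 FPKM with flg22, and its log2 difference of -2.75 ± 0.91 missed the threshold (limma adjusted p = 0.0528) but passed when those 6 libraries were fitted alone (limma adjusted p = 0.00501) and, at -3.44, with a pseudocount of 0.1 (limma adjusted p = 0.0314). Bra010367 had 57.2 to 98.9 FPKM with chitin and 5.39 to 16.3 FPKM with flg22 (log2 difference 2.87 ± 0.38, limma adjusted p = 0.000164). BraNHL10, Bra031321, Bra012103, Bra026621 and Bra009738 were not called in this comparison, with log2 differences between -0.67 and 0.99.

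Genes raised and lowered by chitin were found on all 10 chromosomes. The share raised was between 8.38% on A02 and 11.0% on A04, and the share lowered between 13.2% on A01 and 15.9% on A05. Along the chromosomes, runs of at least 3 neighbouring genes called in the same direction were counted without a test. There were 22 runs of raised genes, of which 19 held 3 genes, 2 held 4 and 1 held 5, and 40 runs of lowered genes, of which 37 held 3 and 3 held 4. The run of 5 raised genes was at A04:18410508-18422642, with log2 fold changes between 1.5 and 2.84. The most abundant run of at least 4 was at A10:14708755-14719431, where 4 genes had mean levels of 174 to 436 FPKM in chitin and 17.2 to 77.8 FPKM in water, with log2 fold changes between 1.62 and 4.12. Whether neighbouring copies share reads was not tested.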

How the data were processed

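RNA of leaf discs was sequenced from stranded mRNA libraries. Per the labels and the study's methods, the authors trimmed reads with Trimmomatic 0.36, aligned them with HISAT2 to the v1.5 chromosomes of B. rapa and quantified genes with StringTie 2.0. The authors deposited 1 table per library with the coverage (a signal per base), FPKM and TPM of each gene. The deposited FPKM values are relative to gene length and library total, and the deposited TPM values are scaled to 1 common total in each library. For its own calls the study ran DESeq2 on counts of reads, which are not part of the values tested here. HISAT2's version is not given in the sources used here.

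Log2(FPKM + 1) values of the 9 libraries were tested with limma 3.58.1 (R 4.3.3) with a mean-variance trend for 23276 genes. A gene was called with a Benjamini-Hochberg adjusted p under 0.05 over all tested genes and a change of at least 2-fold. The comparisons with flg22 and with 30 min used 1 fit of all 23 libraries with 1 coefficient per condition. Aligned bases came from the ratio of coverage to FPKM, and no counts or counting intervals can be given. A value of 0 can be a failed estimate, since 8 values in chitin and 24 in water were 0 while the median of their group was at least 10 FPKM. No library was a copy of another (0.0% of values above 0 were identical between any pair of the 9).

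The study divides the water libraries between chitin and flg22, but the labels do not, and depth or sample order was not used to assign them, so all 6 served as controls. The main fit and the permutation tests did not pair samples by replicate number, and a replicate block was run only as an alternative. Each chitin library's deviation from its group mean correlated at over 0.1 with the mean deviation of the same-numbered water libraries (r = 0.53, 0.16 and 0.17). With single water libraries r was 0.2 and 0.46 for replicate 1 and -0.1 and 0.23 for replicate 2. For replicate 3 it was -0.47 and 0.61. The sign of r for replicates 2 and 3 thus depended on which water library was taken. A block by replicate number cannot show any pairing within the study's own sets, which the labels do not tell apart. That replicates came from separate plants is stated only by the label of biological replicate. The named genes are all those the study names by identifier, plus the 2 largest rises and falls among called genes with separated groups. These genes and lists were chosen with earlier results of these data known. Alternatives were another pseudocount, filter, threshold, scaling or unit, other sets of libraries, and a replicate block.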

Additional observations from a re-analysis of the deposited data

Results flagged for a closer look

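Among the named genes, 2 had a water library far from the other 5 at 180 min. For Bra031321, replicate 3-s19 (4.98 FPKM) stood above the others by 0.716 of the group's range on log2(FPKM + 1). For Bra012103, replicate 1-s7 (0.166 FPKM) was the single library above 0, so its gap was 1.0 of the range. The limit used, Dixon's 95% critical value, is passed by chance in about 1 of 20 groups of normally spread values, a rate that does not apply to Bra012103, where 5 of 6 values were 0.

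The response to chitin differed between the times, by the direct test of the difference (180 min minus 30 min, log2), for 13 named genes. It was smaller or more negative at 180 min for LYK5 Bra021861 (-2.8), Bra010367 (-2.79), Bra009738 (-3.58) and Bra016791 (-4.2). It was larger or less negative at 180 min for LYM2 Bra009660 (1.2), LORE Bra031434 (1.16), APK2 Bra017872 (2.64), CYP79B3 Bra030246 (3.32), UGT74B1 Bra024634 (2.71), the endochitinase Bra000310 (2.15), S-adenosylmethionine synthase 3 Bra017219 (2.73), Bra020747 (2.1) and Bra012103 (5.51). The median difference over all tested genes was 0.28 as deposited and -0.02 after median-ratio scaling. The glucosinolate and late genes, the further qPCR-tested genes and the largest rises and falls had been picked on these libraries. Their differences are therefore no independent evidence.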

How the results depend on the processing

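The numbers of genes higher and lower with chitin at 180 min stayed within 1.5 times under every alternative except a changed fold threshold, with 5097 and 7723 without one and 664 and 530 with a log2 change of at least 2. Leaving out each library gave 2043 to 2322 higher and 2609 to 3912 lower genes. The 8 choices of 1 water library per replicate number gave 1766 to 2683 and 2888 to 3722. The replicate block gave 2181 and 3275 genes, and moved no count by over 1.5 times. It changed 1 call among the named genes, the late minus early difference of Bra026621, which passed at 1.41. A pseudocount of 0.1 gave 4515 lower genes. Against flg22, leave-outs gave 318 to 512 higher and 333 to 713 lower genes, and the lower genes were 362 with median-ratio scaling and 950 with a pseudocount of 0.1. For the late minus early difference, leave-outs gave 2574 to 3641 positive and 1660 to 2492 negative calls, and median-ratio scaling gave 1386 and 3422. Genes lowered at both times were 357 with scaling and 1440 with a pseudocount of 0.1, alternatives chosen after seeing the data, as was leaving out 2 water libraries. No direction of a called named gene reversed under the alternatives run. Without read counts, the precision of low values is unknown.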
